A study of Drosophila melanogaster with 2 samples.

Results

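The regions described here are sites of the transcription factor CG15696 that lie inside an intron of a protein-coding gene and far from any promoter. They were taken from 1 chromatin immunoprecipitation sequencing (ChIP-seq) experiment on whole *Drosophila melanogaster* embryos of mixed sex collected at 2 to 8 h of development. The embryos came from 1 transgenic line that carries CG15696 with GFP fused to its C-terminal end, and chromatin was pulled down with an antibody to GFP. The 2 samples are biological replicates 1 and 3 of the same line and age, so the design has 1 group and no contrast between conditions. The labels give neither the promoter that drives the fusion protein nor whether the untagged protein is also present, and material from whole embryos does not show in which cells a site was bound. From the authors' list of 5354 reproducible sites, those kept had their summit, the position of highest signal within the peak, in an intron of a protein-coding gene, outside all annotated exons of that gene and more than 5000 bp from every annotated protein-coding transcription start site (TSS) of any gene. The rule found 647 sites, 12.1% of the list (Wilson 95% interval 11.2 to 13.0%), and it used position only, not signal.

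CG15696 is a homeodomain protein. Homeodomains are DNA-binding folds of about the same shape in all animals, and many of them recognise short AT-rich words built on a TAAT core. Long introns of developmental genes in flies are known to hold enhancers, stretches of DNA that bind several transcription factors and act on a promoter at a distance. In embryos of this age, cells are passing from the early patterning of the body axes to the formation of tissues.

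Sequences are shown for 5 of the strongest sites and for the strongest site of the 2 introns that held most sites, so that the AT-rich composition of the summits can be seen. Sites on 1 chromosome arm were left out of this choice. Each run is 101 bases of the dm6 plus strand centred on the summit. Capitals mark matches to CAAACA on either strand (TGTTTG where it lies on the minus strand), to AATATT and to TAATTA. These positions were in the intron of *Tis11* (chrX:12666581-12666681), *fz* (chr3L:14304016-14304116), *Socs36E* (chr2L:18145445-18145545), *nyo* (chr3R:31551103-31551203), *Meltrin* (chr3R:14670985-14671085), *rdx* (chr3R:14012682-14012782) and *kirre* (chrX:3022577-3022677).
Tis11: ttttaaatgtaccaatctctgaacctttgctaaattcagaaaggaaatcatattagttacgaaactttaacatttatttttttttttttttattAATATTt
fz: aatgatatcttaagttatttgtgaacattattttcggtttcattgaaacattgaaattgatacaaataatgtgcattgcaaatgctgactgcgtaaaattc
Socs36E: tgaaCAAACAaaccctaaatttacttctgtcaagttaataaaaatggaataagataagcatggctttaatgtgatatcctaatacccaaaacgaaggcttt
nyo: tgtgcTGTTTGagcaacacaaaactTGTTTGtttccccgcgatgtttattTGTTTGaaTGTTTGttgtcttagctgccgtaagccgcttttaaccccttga
Meltrin: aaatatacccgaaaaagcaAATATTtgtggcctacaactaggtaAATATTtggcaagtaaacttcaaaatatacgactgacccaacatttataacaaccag
rdx: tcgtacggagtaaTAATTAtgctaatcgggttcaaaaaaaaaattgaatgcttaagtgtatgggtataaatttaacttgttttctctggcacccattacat
kirre: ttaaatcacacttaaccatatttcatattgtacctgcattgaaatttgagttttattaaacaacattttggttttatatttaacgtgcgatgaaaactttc
The *nyo* window held 4 matches to CAAACA and no AATATT, while the *Meltrin* window held 2 matches to AATATT and no CAAACA. The *rdx* window held the only TAATTA of the set, and the *fz* and *kirre* windows held none of the marked words. GC content in these windows was between 19.8% at *Tis11* and 41.6% at *nyo*.

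Distant intronic sites were sparse for the amount of sequence in which they could lie. The introns of protein-coding genes more than 5000 bp from every TSS, called eligible intron below, covered 30.4 Mb, or 22.7% of the chromosome arms. They held 21.3 sites per Mb (exact Poisson 95% interval 19.7 to 23.0). Introns 501 to 5000 bp from a protein-coding TSS held 49.1 (near intronic, 1176 sites). Sequence outside protein-coding genes and more than 5000 bp from every protein-coding TSS held 23.1 (far intergenic, 595 sites). Within 500 bp of a protein-coding TSS the density was 146 (promoter, 2245 sites). Within introns the density was lower at every step away from the TSS: 57.6 sites per Mb at 0.5 to 2 kb, 41.4 at 2 to 5 kb, 31.4 at 5 to 10 kb, 23.8 at 10 to 20 kb and 16.0 at 20 to 50 kb. Beyond 50 kb only 6 sites were found in 5.05 Mb, a density of 1.19 per Mb (0.436 to 2.59). Of that far sequence, 1.90 Mb lay in a single gene, *Myo81F*, which held no site, and without it the density was 1.90 per Mb (0.699 to 4.14). *Myo81F* was picked out after its values were seen. Repeat content moved with distance: 17.7% of intron at 0.5 to 2 kb was soft-masked in the genome as repeat, 21.5% at 5 to 10 kb and 37.6% beyond 50 kb, and its part in the density was not tested. Signal did not follow the density, since the median signal of intronic sites lay between 219 and 263 in all 6 distance classes. Across the 647 sites Spearman's rank correlation between signal and distance to the TSS was -0.0053, a description over sites of the same libraries.

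**Figure D1:**
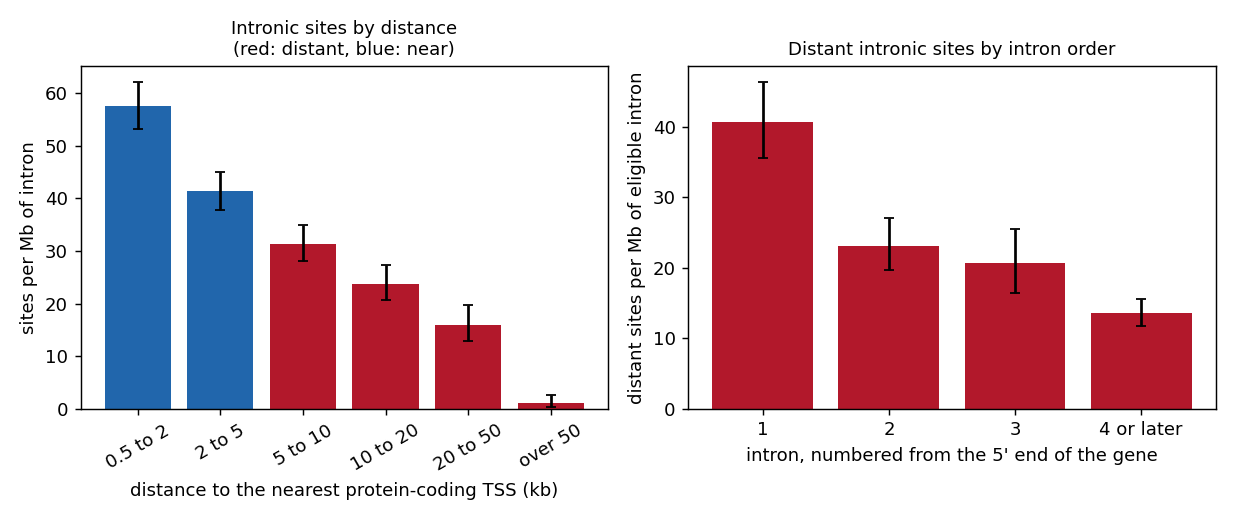
Left: reproducible intronic sites per Mb of intron (y) in 6 classes of distance to the nearest protein-coding TSS in kb (x), blue for near and red for distant sites. Right: distant intronic sites per Mb of eligible intron by the position of the intron in its gene; bars are densities and error bars exact Poisson 95% intervals. Density is 57.6 per Mb nearest the TSS and 1.19 per Mb beyond 50 kb, and 40.6 per Mb in first introns and 13.5 per Mb in intron 4 and later ones.

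First introns held the most sites per Mb. Introns here are the stretches between the merged exons of all transcripts of a gene, numbered from the annotated start of the gene. Their number and length can therefore differ from those in a single transcript. Counting each site with each gene whose intron holds it gave 667 pairs, of which 224 were in first introns, at 40.6 per Mb of eligible first intron (35.5 to 46.3). Intron 2 held 23.1 per Mb, intron 3 held 20.6, and introns from number 4 on held 13.5 (11.8 to 15.5). In each replicate's own 5354 strongest peaks first introns again had the highest density and introns from number 4 on the lowest. Replicate 1 gave 44.8 per Mb in intron 1, 22.4 in intron 2, 22.3 in intron 3 and 13.5 from intron 4 on, and replicate 3 gave 37.6, 22.8, 20.1 and 12.9. Among sites more than 10000 bp from every TSS the densities were 35.0, 16.6, 15.7 and 10.96 per Mb. Introns 2 and 3 lay close together in all of these. The sites themselves had a median distance of 9640 bp to the nearest TSS and reached 86589 bp. That TSS belonged to the host gene for 470 sites and to another gene for 177 (27.4%). The host intron had a median length of 16.9 kb, and 479 sites (74.0%) lay in introns longer than 10 kb. Of the 647 sites, 18 lay in introns of more than 1 gene and 9 overlapped an exon of a different, non-coding gene. In an annotated transposable element lay 1 of the 647 sites, and 9 of all 5354 reproducible sites. Such elements made up 8.72% of eligible intron.

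The sites fell in 345 of the 1856 protein-coding genes that have eligible intron, so that 18.6% of such genes held at least 1. Host genes were long, with a median length of 37.2 kb, against 18.5 kb for genes with eligible intron and no site and 2.17 kb for all protein-coding genes. Their median eligible intron was 18.9 kb, against 4.27 kb in genes without a site. The share of genes with a site was larger where a gene had more eligible intron: 4.94% of genes with up to 5 kb, 20.1% with 5 to 10 kb, 27.1% with 10 to 20 kb, 33.2% with 20 to 50 kb and 51.1% with 50 to 1000 kb. Density was 33.2 sites per Mb in the genes with up to 5 kb, was highest at 38.0 with 5 to 10 kb, and was lower in each class above that, at 30.5, 24.4 and 15.2. Thus the genes with 50 to 1000 kb of eligible intron were hit most often but least densely, and *Myo81F*, the single gene above that, held no site. By chromosome arm, the density was 26.3 per Mb on 2L, 15.7 on 2R, 20.5 on 3L, 20.8 on 3R and 25.2 on X. Of the 8.94 Mb of eligible intron on 3R, 1.95 Mb lay in *Myo81F*, which lowers the density of that arm. Chromosome 4 held 1 site.

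The strongest distant intronic site lay in the first intron of *Lrch*, which encodes a leucine-rich repeat protein of the actin-rich cell cortex. Its signal was 4865 in the reproducible list, the sixth highest of all sites (rank 6), with 2109 in replicate 1 and 2749 in replicate 3. Signal here is the peak caller's own value for a peak, given by the authors without a stated scale, and is used to rank peaks within a list. The site at the second place was in the first intron of *sbb*, which encodes a nuclear co-repressor, with 2948 in the reproducible list, 1383 in replicate 1 and 1576 in replicate 3. *sbb* also held sites of signal 1512 and 1471, so 3 of the 20 strongest lay in its 49.4 kb first intron. *Tis11*, whose zinc-finger protein binds AU-rich messenger RNAs and promotes their decay, had a site of 2904, with 950 in replicate 1 and 1969 in replicate 3. Replicate 3 gave the higher signal at each of these sites. Over the reproducible list the median log2 ratio of replicate 3 to replicate 1 was 0.69. By rank within its own list the *Lrch* site stood 3rd in replicate 1 and 13th in replicate 3, the strongest *sbb* site 11th and 62nd, and the *Tis11* site 41st and 36th.

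Among the 20 strongest sites, spread over 18 hosts, several hosts encode parts of signalling pathways. *cv-2*, a secreted protein that binds BMP ligands, held a site of 2503 (920 in replicate 1 and 1593 in replicate 3). The Wnt and planar polarity receptor gene *fz* held one of 2327 (731 and 1604 in the same order). *Socs36E*, a feedback inhibitor of JAK/STAT signalling, held one of 1821 (580 and 1252), and *nkd*, a feedback inhibitor of Wnt signalling, one of 1367 (451 and 918). In these 4 genes the replicate 3 signal was the higher. Transcription factor genes on the list were *Eip75B* (1532) and *Hr4* (1521), both nuclear receptors of the ecdysone response, *apt* (1414), a factor of head and tracheal development, the Hox gene *Antp* (1480) and *hth* (1344), whose homeodomain protein is a DNA-binding partner of Hox proteins. The site in *Antp* also lies in an intron of the overlapping gene *CG46458*, and those in *Socs36E* and *nkd* also lie in an exon of a long non-coding RNA gene. At 4 hosts of the 20 strongest sites the replicate 1 signal was the higher. These were *nyo* (1817 in the reproducible list, 1024 in replicate 1 and 806 in replicate 3), which encodes a zona pellucida domain protein of the apical matrix, and the metalloprotease gene *Meltrin* (1696, with 938 and 762). The Netrin receptor gene *fra* (1531, with 866 and 676) and the dystrophin gene *Dys* (1362, with 715 and 659) were the other members of that group. The remaining hosts were *CG31145* (1595) and *SKIP* (1373). The 20 sites ranked between 6 and 231 in the reproducible list, between 3 and 269 in replicate 1 and between 13 and 391 in replicate 3, and 13 of them ranked higher in replicate 1. The whole set was weaker than these: its signal ran from 135 to 4865 with a median of 245 and quartiles of 172 and 406. Of the strongest reproducible sites, 5 of the first 100 and 41 of the first 500 were distant intronic, beside 12.1% of the whole list.

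Most host genes held a single site, but 74 held 3 or more and together accounted for 329 of the 667 pairs of site and gene. In all, 204 genes held 1 site, 67 held 2 and 26 held 5 or more. The largest number was 12, in *hth*, spread over 6 of its introns and 114 kb. Its sites ranged from 160 to 1344 in signal with a median of 312, and the strongest was 11.9 kb from the nearest TSS. *kirre*, an immunoglobulin protein that lets muscle founder cells attract fusing myoblasts, held 9, with signals between 138 and 300 and a median of 180. Together the 9 summed to 1773, less than the strongest site of *Tis11* alone (2904). *rdx*, an adaptor that brings the Hedgehog effector Ci to a ubiquitin ligase, held 8, and *cic*, a repressor that is switched off by receptor tyrosine kinase signalling, held 7. All 8 in *rdx* were in intron 4 and all 7 in *cic* in intron 1.

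With *cic*, 9 genes held 7 sites each, and of these *CG12535* and *Ten-a* had the lowest summed signals, 1775 and 1721. The other 6 are described here. *jing*, a zinc-finger factor of trachea and midline, had all of its sites in the first intron over 82.8 kb and a median signal of 630. *Antp* sites had a median of 581 and *pnt*, an ETS activator downstream of receptor tyrosine kinases, one of 321. The Wnt receptor gene *fz2* had a median of 225, *CG42238* one of 210, and *Tet*, a dioxygenase gene, one of 195. In the maps of *hth*, *rdx*, *cic* and *Antp* the distant sites were not all crowded together. In *hth* they formed small groups separated by long stretches without sites, while in *rdx* 3 other reproducible sites with signals of 141, 618 and 1532 lay beside an internal TSS, 3' of the 8 distant ones.

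**Figure D2:**
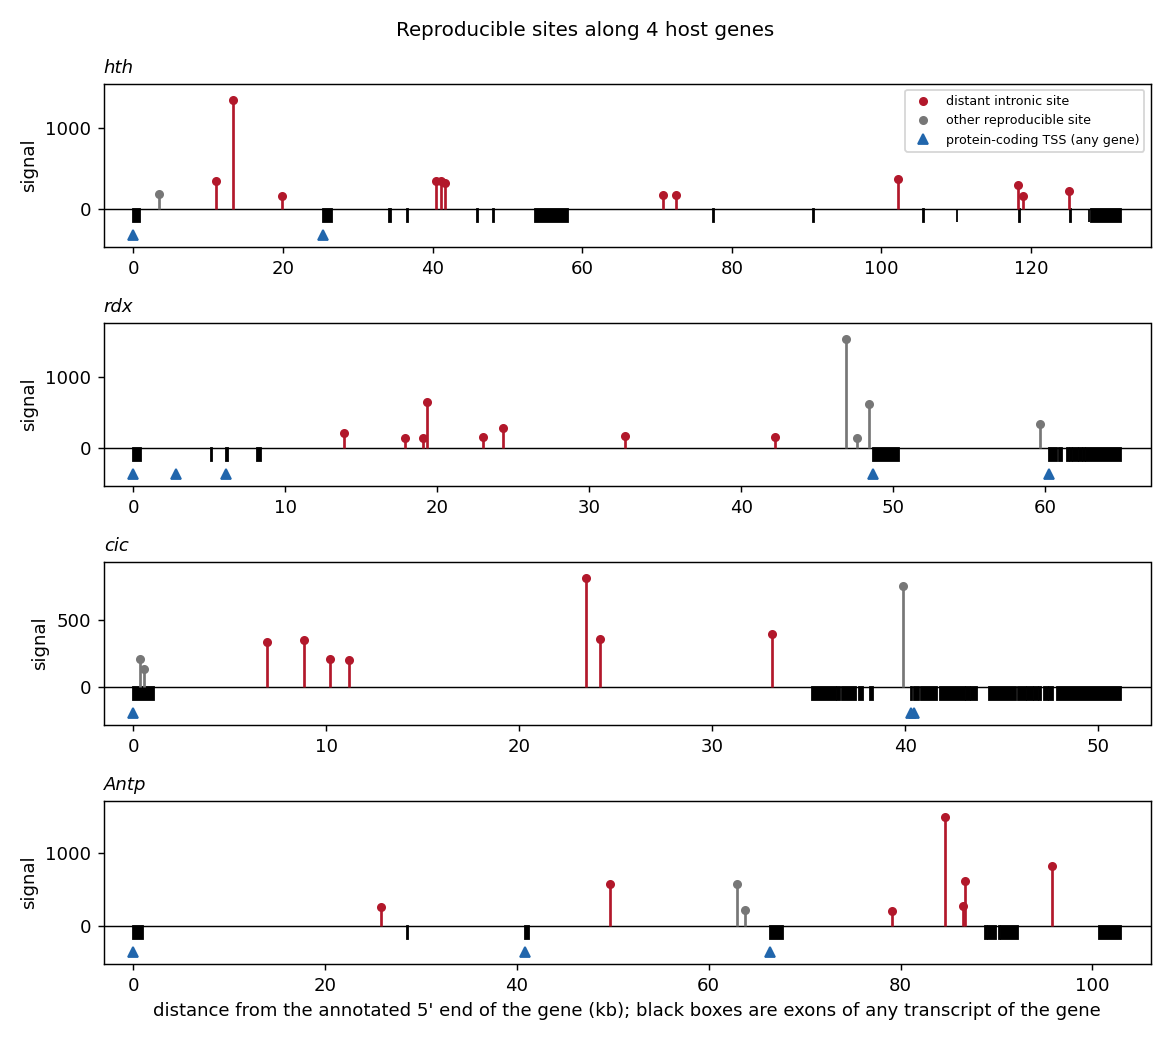
Reproducible sites along *hth*, *rdx*, *cic* and *Antp*, with distance from the annotated 5' end of the gene in kb (x) and the authors' signal in the reproducible list (y). Red stems are distant intronic sites, grey stems other reproducible sites, black boxes exons of any transcript and blue triangles protein-coding TSSs of any gene; *hth* has 12 red stems, *rdx* 8, *cic* 7 and *Antp* 7.

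Many distant sites had another distant site nearby, but closeness of sites was not particular to this class. With reproducible sites of any class counted, the nearest other site was at a median of 4109 bp. The same median was 2726 bp for near intronic, 3304 bp for far intergenic and 4577 bp for promoter sites. It was 3761 bp over all 5354 sites. The nearest other distant intronic site was at a median of 6068 bp, within 10 kb for 374 sites (57.8%), within 5 kb for 300 (46.4%) and within 1 kb for 106 (16.4%). The joining of sites no more than 10 kb apart gave 412 runs, of which 273 were single sites, 82 were pairs and 57 held 3 or more. Those 57 runs took in 210 of the sites. The longest, 8 sites over 28.4 kb, was in *rdx*. Runs of 6 were in *sbb* (9.10 kb long), in *PRAS40*, which encodes a substrate of the TORC1 kinase complex (7.86 kb), and in *kirre* (17.7 kb). The *sbb* run had the highest summed signal of these, 6640, against 1940 in *rdx*, 1783 in *PRAS40* and 1273 in *kirre*. Runs of 5 were in *Antp*, *fz2*, the chromatin cofactor gene *simj*, the MAP kinase cascade gene *Raf* and the T-box factor gene *bi*. In *simj* the 5 sites lay within 5.29 kb.

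The 8 lists of genes, named for their common roles, were read against all genes with eligible intron, of which 18.6% held a site at 21.3 sites per Mb. The lists were chosen with earlier results of these data known, so their counts are descriptions. Genes of signalling pathways had the highest density, 67.8 per Mb (51.1 to 88.3), and 28 of 45 (62.2%) held a site. *fz2* held 7, *fz* 5 and *S*, which encodes the cargo receptor Star needed to release EGF receptor ligands, 4. Homeodomain factor genes had 58.1 per Mb (42.4 to 77.8), with a site in 21 of 51 (41.2%). *hth* with 12, *Antp* with 7 and *Ptx1* with 3 led that list, and *hth* and *Antp* gave 19 of its 45 sites. Other transcription factor genes had 45.1 per Mb (34.0 to 58.8), with a site in 27 of 60 (45.0%). There *pnt* held 7, *Eip75B* 5 and *Hr4* 4. Each of these densities lay above that of all genes in replicate 1 alone and in replicate 3 alone. For signalling genes they were 70.3 in replicate 1 and 59.2 in replicate 3, for homeodomain genes 55.5 and 59.4, and for other factors 55.0 and 39.4, against 22.1 and 20.3 for all genes. Density also varied with the length of eligible intron, and the lists were not matched for it. The median was 11.8 kb for signalling, 8.92 kb for homeodomain and 15.4 kb for other factor genes. All genes with 5 to 10 kb had 38.0 per Mb, and those with 10 to 20 kb had 30.5.

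Genes of axon guidance and cell adhesion were hit more often than all genes, at a density near that of all genes. A site was present in 24 of 52 (46.2%), and the density was 26.4 per Mb (19.9 to 34.4), an interval that holds the value of all genes. Their median eligible intron was 28.6 kb, against 6.15 kb in all genes with any. Of all genes with 20 to 50 kb of eligible intron, 33.2% held a site, at 24.4 per Mb. *kirre* held 9, the teneurin gene *Ten-a* 7 and *Sema1a*, a transmembrane semaphorin, 5. A further 2 lists of genes with long introns were nearly empty. Of 54 genes of ion channels, receptors and synapse, 5 held a site (9.26%), at 4.79 per Mb (1.76 to 10.4), among them the calcium channel subunit genes *Ca-beta* with 2 and *Ca-alpha1T* with 1, and the cAMP phosphodiesterase gene *dnc* with 1. Of 23 genes of the Dpr and DIP immunoglobulin proteins, which pair neurons with their partners, only *DIP-alpha* held a site (4.35%), at 1.35 per Mb (0.0341 to 7.51). The *DIP-alpha* site had a signal of 259 in the reproducible list, 128 in replicate 1 and 130 in replicate 3. Replicate 1 alone gave the same 4.79 and 1.35 per Mb for the 2 lists, and replicate 3 alone 6.38 and 1.35. Their median eligible intron, 17.1 kb for channels and synapse and 22.9 kb for Dpr and DIP, was longer than the 11.8 kb of the signalling list.

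The remaining lists had intervals that hold the value of all genes. Mesoderm and muscle genes had 28.0 per Mb (15.7 to 46.2) with a site in 7 of 25. There 9 of the 15 sites were in *kirre*, and the factor genes *Mef2* and *vg* held 1 each. Extracellular matrix and epidermis genes had 18.9 per Mb (6.95 to 41.2) with a site in 4 of 20. *Tsp* (thrombospondin) held 3, *nyo* 1 and the giant apical matrix gene *dpy* 1. This last list had 12.6 per Mb in replicate 1 alone and 25.3 in replicate 3 alone, resting on 4 and 8 sites.

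**Figure D3:**
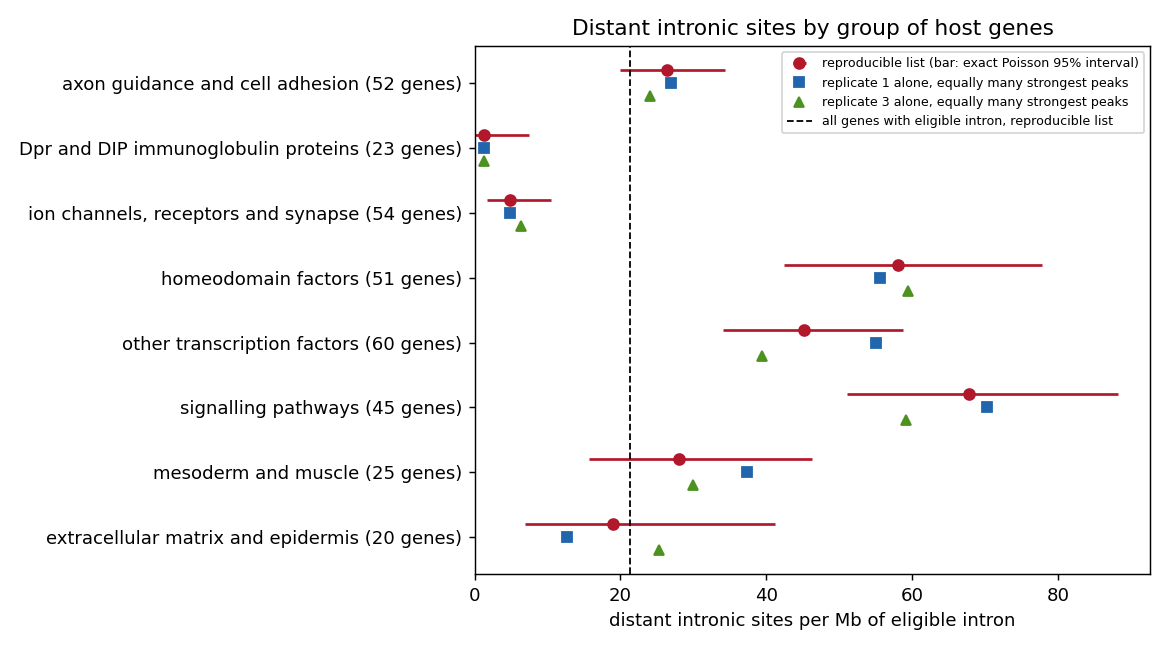
Distant intronic sites per Mb of eligible intron (x) for 8 lists of genes (y, with the number of genes that have eligible intron). Red points with exact Poisson 95% intervals are the reproducible list, blue squares replicate 1 alone and green triangles replicate 3 alone; the dashed line is the 21.3 per Mb of all genes. Signalling, homeodomain and other transcription factor genes lie to the right of the line with all 3 symbols, and channel, synapse, Dpr and DIP genes to the left of it.

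Nearly all of these sites were seen in both replicates when their full lists of 30000 peaks were searched. A peak summit within 100 bp was found in replicate 1 for 633 sites, in replicate 3 for 636, in both for 622 and in neither for 0. Among the 5354 strongest peaks of each replicate, 560 (86.6%) had a partner in replicate 1, 553 (85.5%) in replicate 3 and 472 (72.95%) in both. Over all 5354 reproducible sites, 94.3% had a partner in both full lists and 72.7% among the strongest peaks of both. The reproducible list was itself derived from these 2 replicates, so high shares follow largely from how it was made. The strongest site with no partner in replicate 3 was in *tara*, with a signal of 832 in the reproducible list and 351 in replicate 1. The strongest with none in replicate 1 was in *simj*, with 266 and, in replicate 3, 173. These 2 sites were picked out after their values were seen. Over the 622 sites with both values, Spearman's rank correlation between the replicates' signals was 0.72.

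Replicate 3 gave the higher signal for 453 of the 622 sites and replicate 1 for 169. The median signal was 138 in replicate 3 and 110 in replicate 1, and the median log2 ratio of replicate 3 to replicate 1 was 0.42 (quartiles -0.06 and 0.80). The same median was 0.54 for near intronic, 0.57 for far intergenic and 0.92 for promoter sites. Over all reproducible sites with both values it was 0.69, so a higher signal in replicate 3 was a trait of the whole list. The ratio was lower where GC content around the summit was higher. When the sites were cut into 4 equal parts by GC, the part with the lowest GC, 10.9 to 26.7%, had a median log2 ratio of 0.68, and 9 of its 156 sites were higher in replicate 1. The part with the highest GC, 39.6 to 61.4%, had a ratio of 0.02, and 75 of its 156 sites were higher in replicate 1. Spearman's rank correlation between the ratio and GC was -0.39 over the 622 sites, which share the same libraries. The largest ratio was at a site in *Hr4* with 61.4% GC, 540 in replicate 3 and 64.2 in replicate 1 (log2 ratio 3.07), which goes against that trend. Among the 12 genes with 7 or more sites, the median log2 ratio was 1.56 in *Tet*, over the 5 of its 7 sites that had both values, and between -0.24 in *CG12535* and 0.77 in *fz2* in the other 11.

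Lower in each replicate's list, distant intronic positions took a larger share. In replicate 1 they were 12.5% of the strongest 5354 peaks, 13.3% of ranks 5355 to 10000, 16.3% of ranks 10001 to 20000 and 18.0% of ranks 20001 to 30000. In replicate 3 the shares were 11.5%, 14.5%, 17.4% and 19.1%. All stayed below the 22.7% of the chromosome arms that eligible intron makes up. From the first to the last rank class the promoter share fell from 41.4% to 18.2% in replicate 1 and from 43.0% to 15.1% in replicate 3. The far intergenic share rose from 11.1% to 12.5% and from 10.9% to 13.5%. The near intronic share was 22.4% and 23.75% in replicate 1, and 21.9% and 21.8% in replicate 3.

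**Figure D4:**
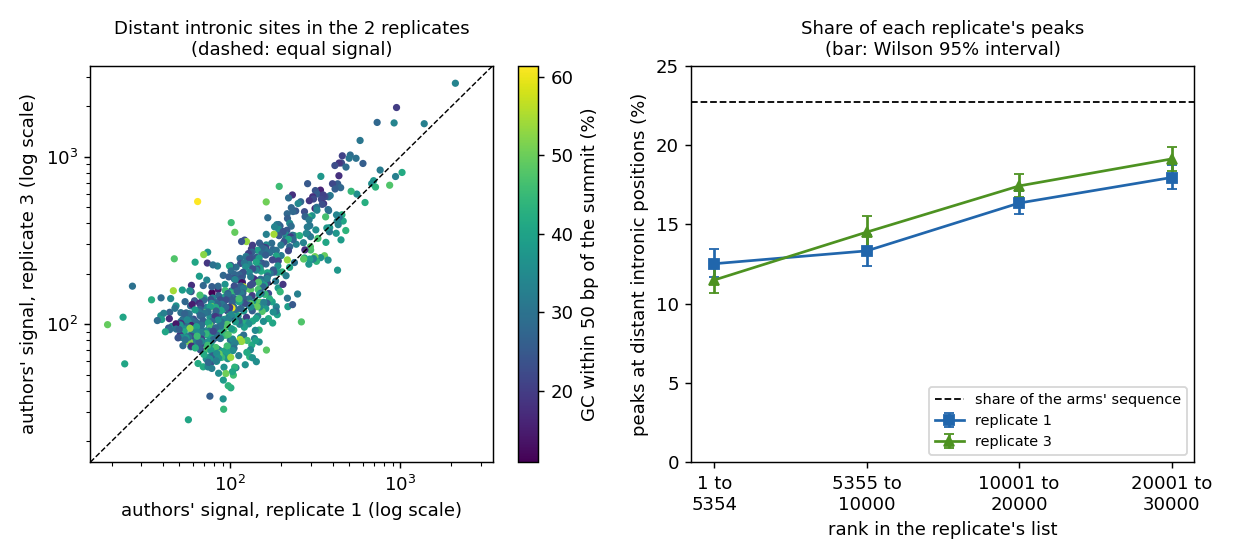
Left: authors' signal of 622 distant intronic sites in replicate 1 (x) and replicate 3 (y), both on log scales, coloured by GC within 50 bp of the summit in percent, with equal signal as a dashed line; 453 points lie above it. Right: percent of each replicate's peaks at distant intronic positions (y) by rank class (x), with Wilson 95% intervals and the 22.7% share of the arms' sequence as a dashed line; the share grows from 12.5% to 18.0% in replicate 1 and from 11.5% to 19.1% in replicate 3.

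The summits were AT-rich. GC content within 50 bp of the summit averaged 33.4% ± 8.89 (SD over 647 sites), against 42.9% in windows of the same length centred 350 bp to each side and 40.3% in 291876 windows tiled over eligible intron. It was lower at the summit than in the flanks for 484 sites (74.8%). The dip was narrow: in bins of 20 bp the mean reached 31.7% just past the summit and was back at 40.8% at 110 bp on 1 side and 42.4% at 110 bp on the other. The means were 33.2% at near intronic, 32.1% at far intergenic and 31.7% at promoter sites.

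**Figure D5:**
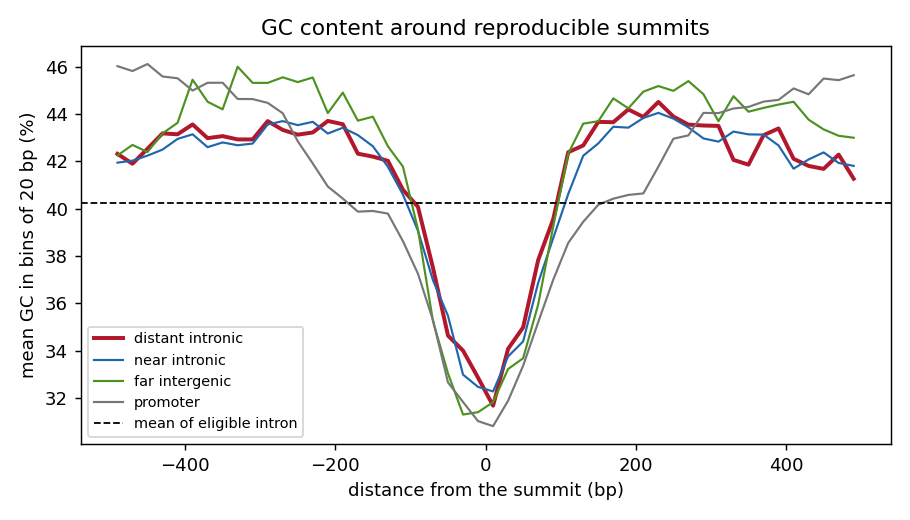
Mean GC content in bins of 20 bp (y, percent) against distance from the summit (x, bp) for distant intronic (red), near intronic (blue), far intergenic (green) and promoter sites (grey); the dashed line is the mean of eligible intron, 40.2%. All 4 classes dip at the summit, the distant intronic sites to 31.7%.

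Of 14 short words searched on both strands within 50 bp of the summit, AATATT stood out most from its surroundings. It was present at 22.7% of distant intronic sites (Wilson 95% interval 19.7 to 26.1%), against 7.26% of their flanks and 9.38% of the tiled windows. The other classes were alike. AATATT was at 21.9% of near intronic sites against 7.57% of flanks, at 22.2% against 5.88% for far intergenic and at 20.6% against 7.04% for promoter sites. The word CAAACA, which resembles the core bound by forkhead-type factors, was present at 20.9% (17.9 to 24.2%), against 12.4% of flanks and 11.3% of windows. The GATA-type word AGATAA was present at 11.7%, against 6.03% of flanks and 5.85% of windows. The TATAAA word was at 22.9%, against 11.3% and 12.6% for the same backgrounds, and TTAAAA was at 24.9%, against 12.4% and 18.1%. The homeodomain word TAATTA was present at 9.58% (7.55 to 12.1%), against 6.03% of flanks and 7.23% of windows. Its relative TAATTG was at 9.58%, against 8.73% and 10.3%, and TAATGA at 6.65%, against 7.26% and 7.55%. The CATATG word was at 5.26%, against 3.79% and 2.87%. Of the other 5 words, 4 had a lower share than their flanks. The NK-2 type word CACTTG was at 5.41%, against 6.65% of flanks and 6.51% of windows, and the E-box CAGCTG was at 2.01%, against 3.63% and 3.54%. The repeat CACACA was at 9.27%, against 12.7% and 9.34%, and GAGAGA was at 5.41%, against 5.80% and 3.79%. The early zygotic word CAGGTA was at 2.63%, against 2.24% and 1.93%. AT-rich windows hold AT-rich words more often, the shares overlap where words share letters, and a match is a description of sequence, not a bound site.

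Distant and near intronic sites were compared for 5 properties and the 14 words with Fisher's exact test (two-sided) on counts of sites, adjusted by Benjamini-Hochberg over all 19. Sites of a gene are not independent, and these p-values cover the counting of sites only, not the spread between embryos. A ratio of the replicates' signals below the median of the whole list, that is towards replicate 1, was found at 422 of 622 distant sites (67.8%) and 660 of 1126 near sites (58.6%). The difference of 9.23 percentage points (95% interval 4.51 to 13.8) had an adjusted p of 0.00133. It was 7.39 points with an adjusted p of 0.163 when only the strongest site of each gene was kept. Among sites above the median signal of the list it was 9.66 points (adjusted p 0.0859). In that setting the ratio was cut at the median of those sites, not of the whole list. Another reproducible site of any class lay within 5 kb of 363 of 647 distant sites (56.1%) and 789 of 1176 near sites (67.1%). The distance rule itself bears on these counts, since a distant site can hardly have a promoter site within 5 kb and a near site can, so they are given as a description with no test. With that property left out of the adjustment, over 18 tests and chosen after the data were seen, the adjusted p for the ratio was 0.00253.

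No difference passed the test for the other 3 properties. Signal above the list median was found at 46.4% of distant and 49.9% of near sites, a difference of -3.55 points (-8.31 to 1.25, adjusted p 0.296). A partner among the strongest peaks of both replicates was found for 72.95% of distant and 76.9% of near sites (-3.92 points, -8.16 to 0.202, adjusted p 0.217). GC below the list median was found at 45.7% of distant and 44.9% of near sites (0.85 points, -3.90 to 5.63, adjusted p 0.957). None of the 14 words passed (0 by the adjusted Fisher's exact test, 3 at an unadjusted p under 0.05). Those 3 were CATATG at 5.26% of distant and 7.91% of near sites, then GAGAGA at 5.41% and 3.40%, and TTAAAA at 24.9% and 29.4%.

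Set against far intergenic sites, the ratio again differed. Those sites also lie more than 5000 bp from every protein-coding TSS but outside protein-coding genes. Non-coding genes and their TSSs were not excluded from that class. It was towards replicate 1 at 67.8% of distant intronic and 57.7% of far intergenic sites, a difference of 10.2 points (4.68 to 15.6, adjusted p 0.00569, Fisher's exact test over the same 19). GC below the list median was found at 45.7% of distant intronic and 54.1% of far intergenic sites, a difference of -8.37 points (-13.9 to -2.80, adjusted p 0.0357). Since the ratio moved with GC among the distant sites, GC stands beside this difference in the ratio, and its part was not tested. Another site within 5 kb was found for 56.1% of distant intronic and 60.2% of far intergenic sites (-4.06 points, -9.51 to 1.43, adjusted p 0.409). None of the 14 words passed here either, with 4 at an unadjusted p under 0.05. This comparison was added after the data were seen.

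At the edge of the 5000 bp rule, just inside it, were sites in *tara* at 5014 bp with a signal of 404, in *NetB* at 5023 bp with 397 and in *dachs* at 5036 bp with 297. Just outside it were sites in *CycE* at 4999 bp with 391, in *cno* at 4997 bp with 2080 and in *Sema1a* at 4978 bp with 359.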

How the data were processed

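Chromatin from 2 biological replicates (numbers 1 and 3) of 1 embryo group was sheared to 200 to 800 bp, per the labels. The deposited peak lists give, per the labels and the notes deposited with the files, a signal value for each peak and the −log10 of a q-value on dm6; the authors called 30000 peaks in each replicate and in both together, against 1 control alignment shared by all, and the reproducible list was set by their IDR (irreproducible discovery rate) procedure. The caller, its settings, the kind of control, the IDR threshold and the number of reads were not given in the sources used here. Depth is therefore unknown. The −log10 values were not used for ranking.

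Sites were classed by summit against Ensembl release 115 and sequence was read from the RefSeq dm6 assembly, with Python 3.11.15, numpy 2.4.6, pandas 2.3.3 and SciPy 1.17.1. All peaks and genes on the 6 arms lay within that sequence. A replicate partner is a peak summit within 100 bp. Intervals are Wilson, exact Poisson or Newcombe at 95% and cover counting error only. A call is an adjusted p under 0.05. The classing and the tests were checked on simulated data. Named are the hosts of the 20 strongest sites, the 10 hosts with most sites and up to 3 genes per list with most sites; exceptions are stated. Of 512 listed symbols 1 did not match; 1 list and 1 sequence are not reported here. The members, lists and words were chosen with earlier results of these data known. The replicates share the line and the control, so agreement between them is not independent of these. Alternatives were a boundary of 2000 or 10000 bp, TSSs of all biotypes except transposable elements, the strongest site per gene, the upper part of the list by signal (above its median), other windows and matching distances, and each replicate alone. For the upper part of the list, medians and neighbours were taken within that part. The comparison with far intergenic sites and the densities of the lists in each replicate were added after seeing the data.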

Additional observations from a re-analysis of the deposited data

How the results depend on the processing

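Of 198 recomputed values, 131 were differences with an adjusted p, and 22 of these changed sign. None of the 22 was past the test in either setting. The share of sites, host gene count and site density moved past the limit set for them 10 times. Densities of gene lists or of all genes did so 6 times. The 10 moves came with another boundary, with TSSs of all biotypes or with the upper part of the list. Those settings redefine the members or shorten the list, so the 10 moves follow largely from the settings. The share of distant intronic sites was 21.7% with a boundary of 2000 bp, 5.73% with 10000 bp, 10.4% with TSSs of all biotypes and 11.2% above the median signal; the host genes numbered 580 and 155 with the 2 boundaries and 198 above the median signal, and the density was 27.1, 15.7 and 9.88 per Mb in the same order. The difference in the replicate ratio lost its call with the strongest site per gene (7.39 points) and above the median signal (9.66); the cause was not tested. The difference in neighbours, on which the distance rule bears, was -10.99 points, -6.37 above the median signal and -5.03 within 10 kb. Above the median signal the difference in replicate partners was 0.207 points. The difference in GC was -0.431 points with windows of 100 bp to each side and ran from -2.36 without replicate 3 to 3.10 without replicate 1. Among word shares, the differences that crossed zero were, in points, 0.724 (2000 bp, TAATGA); at 10000 bp 0.529 (TAATTG), 1.02 (TAATGA), -0.0245 (CAGCTG) and -0.863 (AATATT); with the strongest site per gene 0.241 (TAATTA), -0.295 (CAGCTG) and -1.73 (TATAAA); above the median signal 0.378 (CACTTG), -0.0290 (AGATAA), -1.21 (CAGCTG) and -0.00568 (AATATT); with 100 bp windows -0.346 (AGATAA) and -2.10 (CAGCTG); without replicate 3 0.0988 (TAATGA), 0.641 (CACTTG, -0.922 without replicate 1) and -0.864 (CAGCTG); and without replicate 1 0.0846 (TAATGA) and -0.263 (CAGCTG). More than 10000 bp from every TSS, signalling genes had 46.2 sites per Mb, homeodomain genes 56.9 and other factor genes 36.1, against 15.8 for all genes, and extracellular matrix genes had 0 in 0.170 Mb. With a boundary of 2000 bp, mesoderm genes had 41.4 per Mb, against 27.0 for all genes. The replicate ratio and partners need both replicates and have no value with 1 left out. No paired analysis was possible because both replicates belong to 1 group. Without read counts, the depth behind a weak or missing peak cannot be given.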
